A study of Mus musculus with 10 samples.

Results

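A set of 9 genes that sense, move and export cholesterol were followed in the mouse optic nerve head after a brief rise of eye pressure. They are Scap, Insig1, Insig2, Srebf1, Srebf2, Stard4, Abca1, Abcg1 and Apoe, taken as the probe sets of the array whose annotated symbol was exactly one of these names. Of the 9 genes, 8 were measured, on 14 probe sets, among 12393 genes with an own symbol on the array. No probe set carried Insig1 as its single symbol, so its expression was not analysed here.

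The samples were optic nerve heads of C57Bl/6 male mice, 6 to 8 weeks old. In the raised pressure group the right eye had been cannulated in the anterior chamber and held at 30 mmHg for 1 h, and the tissue was collected 3 days later. The control group was the left eye of the same animals, which was not operated on. Each array was hybridised with amplified RNA from a pool of 2 nerve heads, with 5 arrays in each group from 10 mice. The operation and the side of the body went with the pressure and cannot be told apart from it, and no sham-operated eyes enter this comparison.

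Cells keep membrane cholesterol within narrow limits through a sensor in the endoplasmic reticulum. Scap escorts the precursors of the transcription factors SREBP-1 (Srebf1) and SREBP-2 (Srebf2) to the Golgi for cleavage, and the Insig proteins hold Scap back when sterols are plentiful. SREBP-2 mainly drives cholesterol synthesis and uptake genes, and SREBP-1 mainly fatty acid synthesis genes. Stard4 is a soluble carrier that moves cholesterol between membranes, and its gene is a target of SREBP-2. Abca1 and Abcg1 are membrane transporters that pass cholesterol to lipoprotein particles and are induced by the liver X receptors, and Apoe is the main apolipoprotein made by glia in nervous tissue. Oligodendrocytes need large amounts of sterol for myelin. None of the 9 genes is a lipoprotein receptor, and receptors are described after them, in a list of their own.

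The log2 values of Srebf1 and Srebf2, the genes of the SREBP precursors, had a Pearson correlation of -0.54 over the 10 arrays. The sequences before the starts of both genes are shown for that reason. They come from the RefSeq promoter table of build GRCm38.p6, are written 5′ to 3′ on the strand of the gene, and end at the base before the start, 250 bases in all. Srebf2 has a single listed start, with the sequence at chr15:82147019-82147268 on the plus strand. Srebf1 has several, on the minus strand, and the 2 that hold an Sp1 match are shown, the outer at chr11:60220628-60220877 and the inner at chr11:60210472-60210721. Capitals mark exact matches to CCAAT (the box bound by NF-Y) or GGGCGG (the Sp1 box) on either strand.
Srebf2: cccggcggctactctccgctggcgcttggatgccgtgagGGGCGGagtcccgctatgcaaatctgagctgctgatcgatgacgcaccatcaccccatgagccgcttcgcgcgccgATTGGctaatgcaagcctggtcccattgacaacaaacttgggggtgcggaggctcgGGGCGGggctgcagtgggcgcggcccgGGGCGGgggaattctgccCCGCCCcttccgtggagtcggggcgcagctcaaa
Srebf1 outer start: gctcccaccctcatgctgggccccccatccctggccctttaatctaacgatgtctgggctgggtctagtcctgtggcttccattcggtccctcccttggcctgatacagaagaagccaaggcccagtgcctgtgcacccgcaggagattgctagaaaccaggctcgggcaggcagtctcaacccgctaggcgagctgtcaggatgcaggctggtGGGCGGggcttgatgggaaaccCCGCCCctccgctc
Srebf1 inner start: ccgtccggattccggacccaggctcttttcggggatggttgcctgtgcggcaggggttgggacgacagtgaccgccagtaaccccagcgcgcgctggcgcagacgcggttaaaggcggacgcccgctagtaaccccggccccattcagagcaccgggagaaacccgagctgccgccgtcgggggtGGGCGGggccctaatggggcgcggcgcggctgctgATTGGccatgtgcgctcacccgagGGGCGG

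The Srebf2 sequence held 1 CCAAT match and 4 Sp1 matches, and the inner Srebf1 sequence 1 and 2. Over all 32851 listed starts, 33.8% of such sequences held CCAAT and 32.7% the Sp1 box. Promoter entries were used for 7 genes, counting Insig1, with 14 starts. The search of these genes left out the entries of 1 chromosome. No sequence of Stard4 or Abcg1 was among the 14, so the counts below do not cover them. The sterol regulatory element searched, TCACNCCAC, was in 0 of the 14 and in 1.05% of all starts, and the E-box CACGTG was in 3 of the 14 (Abca1, Insig1 and 1 start of Scap) and in 6.02% of all. The liver X receptor element DR4, a spaced direct repeat, was in 0 of the 14 and in 0.0152% of all, while its single unit AGGTCA, which every such repeat contains, was in 1 (Insig1, where it overlaps the E-box) and in 14% of all. The shorter TCACCCCA, searched only after the Srebf2 sequence had been read, begins 162 bases before the Srebf2 start and 213 before a start of Apoe, and 1.34% of all starts hold it on either strand. Only exact letters were searched, so looser forms of the sterol regulatory element or of DR4 were not counted. A count of 0 therefore does not show that such an element is absent. These matches describe letters only, and the array does not tell which Srebf1 start a transcript came from.

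The array medians lay between 414 and 475 on the linear signal scale, and the number of arrays limited the precision. Raised pressure replicate 1 stood apart, with a mean correlation of 0.974 with the other arrays against 0.986 or more for each of the others, and its Gapdh control probe sets read 2.07 times as high at the 3' end as at the 5' end, against 1.53 to 1.73 times elsewhere. By the actin control probe sets it did not stand apart, with a ratio of 2.10 against 2.13 in raised pressure replicate 4 and 1.65 to 1.94 in the other arrays. The tissue carried astrocyte markers, with all 12 listed markers measured and a summed signal of 83011 to 92536 in control and 80354 to 89185 in raised pressure arrays. Photoreceptor markers (14 of 15 measured) varied far more, from 1812 to 13357 in control and from 2578 to 12927 in raised pressure arrays. In pooled tissue, fewer cells of a type and less RNA per cell cannot be told apart.

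No sterol gene passed the test after raised pressure. The means of Srebf2, Stard4, Abcg1, Insig2, Abca1 and Apoe were lower and those of Srebf1 and Scap higher, with the largest difference in Stard4, whose mean was 0.821 times the control mean. At a limma adjusted p under 0.05, 0 of the 14 probe sets were called, against 0 of 22626 (0%) on the whole array. At an unadjusted p under 0.05 it was also 0 of the 14, against 1004 (4.44%) of all probe sets, a count of 739 without control replicate 2 and 2017 without raised pressure replicate 3. The groups overlapped for each of the 14, where 0.663% of all probe sets had groups that did not overlap. Of the 8 genes 6 had a lower mean, against 52.7% of all genes, and their median log2 fold change was -0.12 against -0.01 over all genes. Without raised pressure replicate 1, 5 of the 8 were lower and the median was -0.04, and without raised pressure replicate 3 it was -0.19. For 12 of the 14 probe sets the 95% confidence interval stayed inside 1.5-fold either way, against 75.8% of all probe sets. With 1 probe set a gene, it did so for 7 of the 8 genes, against 76.8% of all genes. Log2 fold changes are raised pressure minus control on the scale log2(signal + 16), and for a gene with several probe sets the one with the highest mean over all arrays is given first.

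**Figure D1:**
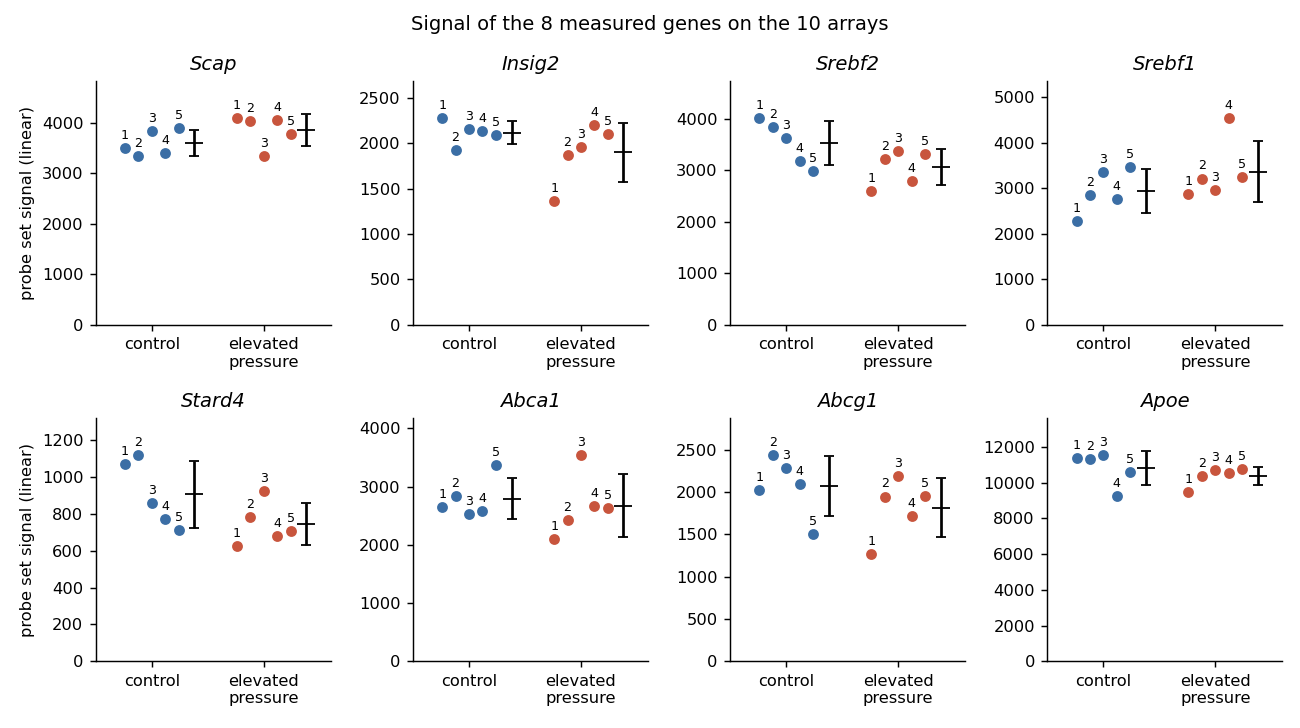
Linear probe set signal of the 8 measured genes, 1 panel a gene, in control (blue) and raised pressure (red) arrays, numbered by replicate, with the mean and SD of 5 arrays beside each group as a black bar. The groups overlap in every panel, and raised pressure replicate 1 is the lowest of the 10 arrays for Insig2, Srebf2, Stard4, Abca1 and Abcg1.

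Scap, the escort of the SREBP precursors, had signals of 3504, 3347, 3844, 3399 and 3904 in control replicates 1 to 5 and of 4091, 4029, 3346, 4047 and 3785 in raised pressure replicates 1 to 5. Raised pressure replicates 1, 2 and 4 lay above every control array and replicate 3 just below the lowest, so the groups overlapped. The control mean was 3600 ± 258 (SD, n = 5) and the raised pressure mean 3860 ± 311 (SD, n = 5), a log2 fold change of 0.10 (95% interval -0.09 to 0.29, limma adjusted p = 0.837). Leaving out raised pressure replicate 3 gave 0.15, and leaving out raised pressure replicate 1 gave 0.08. Over the 10 arrays Scap had the narrowest range of the 8 genes, with a highest signal 1.22 times the lowest, against 1.25 times for Apoe.

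Insig2 encodes the measured one of the proteins that retain Scap. Its brightest probe set read 2277, 1927, 2153, 2139 and 2092 in control and 1360, 1876, 1961, 2206 and 2099 in raised pressure replicates 1 to 5. Apart from the low value of raised pressure replicate 1, the raised pressure arrays lay near or within the control range. The log2 fold change was -0.17 (interval -0.45 to 0.11, limma adjusted p = 0.837), and -0.06 without that array. The other probe sets of Insig2 stood at 0.03 (interval -0.20 to 0.26) and -0.15 (interval -0.47 to 0.16). The 3 probe sets did not follow each other across arrays: over the 10 arrays the brightest had a Pearson correlation of -0.31 with the first of these and -0.05 with the other. The second of these stood at -0.04 without control replicate 1 and at -0.10 without raised pressure replicate 4. The first stayed within 0.09 of 0 whichever array was left out and changed sign without control replicate 2 or 3 or raised pressure replicate 2 or 3.

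Srebf2, the gene of SREBP-2, read 4010, 3845, 3618, 3183 and 2986 in control and 2595, 3226, 3364, 2784 and 3317 in raised pressure replicates 1 to 5. Control replicates 1, 2 and 3 lay above every raised pressure array, and raised pressure replicates 1 and 4 below every control array. The means were 3528 ± 434 (SD, n = 5) and 3057 ± 346 (SD, n = 5), with a log2 fold change of -0.20 (interval -0.45 to 0.04, limma adjusted p = 0.837, two-sided exact permutation p = 0.103). The second probe set gave -0.19 (interval -0.45 to 0.07), and both followed each other closely over the arrays (Pearson correlation 0.92, n = 10, and 0.89 without raised pressure replicate 1). Without that array the differences were -0.15 and -0.11. Of the 4 genes with several probe sets, Srebf2 and Stard4 had probe sets that all pointed the same way.

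Srebf1, the gene of SREBP-1, read 2270, 2854, 3357, 2766 and 3463 in control and 2869, 3213, 2955, 4538 and 3247 in raised pressure replicates 1 to 5. Raised pressure replicate 4 stood above all other arrays and control replicate 1 below them, while the others overlapped. The means were 2942 ± 483 (SD, n = 5) and 3364 ± 676 (SD, n = 5), a log2 fold change of 0.19 (interval -0.14 to 0.52, limma adjusted p = 0.837). It was 0.08 without raised pressure replicate 4, 0.10 without control replicate 1 and 0.24 without raised pressure replicate 1.

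Srebf1 and Srebf2 tended to run against each other across the arrays, but not on each of them. On control replicates 3 and 4 and raised pressure replicates 1 and 5 both lay on the same side of their means. Their log2 values had a Pearson correlation of -0.54 over the 10 arrays and of -0.80 over the 9 without raised pressure replicate 1. The log2 ratio of Srebf1 to Srebf2, taken as the deviation from its mean over the arrays, was -0.74, -0.36, -0.04, -0.13 and 0.28 in control and 0.22, 0.07, -0.11, 0.77 and 0.04 in raised pressure replicates 1 to 5. Its extremes were control replicate 1 and raised pressure replicate 4, and the groups overlapped. The ratio was examined because the values had been seen to diverge and was given no test.

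Stard4, the sterol carrier, read 1069, 1119, 856, 774 and 709 in control and 623, 783, 921, 681 and 708 in raised pressure replicates 1 to 5. Raised pressure replicates 1, 4 and 5 lay below every control array, and control replicates 1 and 2 above every raised pressure array. The means were 905 ± 181 (SD, n = 5) and 743 ± 115 (SD, n = 5), a log2 fold change of -0.27 (interval -0.60 to 0.06, limma adjusted p = 0.837, two-sided exact permutation p = 0.135). It ran from -0.35 without control replicate 5 to -0.19 without control replicate 2, and was -0.21 without raised pressure replicate 1. This was the only one of the 8 genes whose interval reached past 1.5-fold, on the lower side. A second, dim probe set of Stard4 (69.9 to 116 over the arrays) stood at -0.07 (interval -0.34 to 0.20) and had a correlation of -0.12 with the bright one. It was between -0.16 without raised pressure replicate 1 and -0.0041 without raised pressure replicate 3.

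Abca1, which loads cholesterol onto lipid-poor apolipoproteins, read 2643, 2833, 2532, 2577 and 3378 in control and 2094, 2429, 3543, 2663 and 2628 in raised pressure replicates 1 to 5. The highest value was in raised pressure replicate 3 and the lowest in raised pressure replicate 1, so the raised pressure arrays spread around the control range. The log2 fold change was -0.08 (interval -0.38 to 0.23, limma adjusted p = 0.909). It was -0.0067 without control replicate 5, -0.18 without raised pressure replicate 3, -0.05 without raised pressure replicate 2, and turned to 0.0048 without raised pressure replicate 1. The other probe sets of Abca1 were dim and pointed the other way. One, with signals of 51.1 to 157, stood at 0.12 on the log2 scale (interval -0.43 to 0.67) and ran from -0.09 without raised pressure replicate 3 to 0.25 without raised pressure replicate 2. The last, with signals of 18.4 to 40.4, close to the 16 added before the log, had 0.25 (interval -0.01 to 0.50). Its unadjusted limma p of 0.0569 was the lowest of the 14, with a limma adjusted p = 0.837.

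Abcg1, which passes cholesterol to mature lipoprotein particles, read 2025, 2440, 2283, 2095 and 1508 in control and 1265, 1949, 2187, 1723 and 1954 in raised pressure replicates 1 to 5. Control replicate 5 and raised pressure replicate 1 were the low arrays of their groups, and the remaining values overlapped. The means were 2070 ± 354 (SD, n = 5) and 1815 ± 349 (SD, n = 5), a log2 fold change of -0.19 (interval -0.56 to 0.17, limma adjusted p = 0.837). It was -0.07 without raised pressure replicate 1 and -0.30 without control replicate 5.

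Apoe read 11381, 11309, 11560, 9255 and 10600 in control and 9507, 10360, 10737, 10520 and 10765 in raised pressure replicates 1 to 5. All 5 raised pressure arrays lay within the control range, which control replicate 4 widened on its lower side. The means were 10821 ± 949 (SD, n = 5) and 10378 ± 514 (SD, n = 5), a log2 fold change of -0.06 (interval -0.25 to 0.13, limma adjusted p = 0.887). It was -0.11 without control replicate 4, -0.03 without raised pressure replicate 1 or control replicate 3 and -0.04 without control replicate 1. The signal was high on an array whose values ended at 20168, and compression of differences at that level was not tested.

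**Figure D2:**
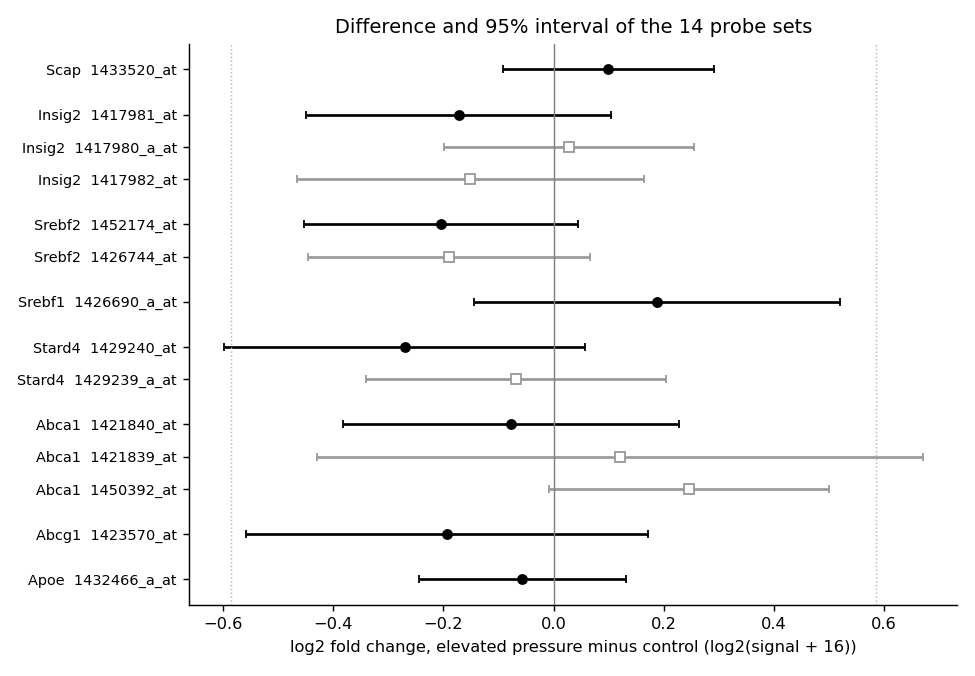
Log2 fold change (raised pressure minus control, log2(signal + 16)) and 95% confidence interval of each of the 14 probe sets, filled black for the brightest probe set of a gene and open grey for the others, with dotted lines at 1.5-fold. The interval of each probe set includes 0, and the probe sets of Insig2 and Abca1 lie on both sides of it.

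Across the arrays Srebf2, Stard4 and Abcg1 varied together. The correlation of Srebf2 with Stard4 was 0.92 over the 10 arrays and 0.90 without raised pressure replicate 1, and that of Srebf2 with Abcg1 0.83 and 0.73. Stard4 and Abcg1 had 0.78 and 0.72. Apoe had 0.72 with Srebf2 (0.60 without that array), 0.64 with Stard4 (0.53) and 0.53 with Abcg1 (0.28). Scap went the other way, with correlations of -0.67 with Srebf2 (-0.58 without that array), -0.77 with Stard4 (-0.71) and -0.70 with Abcg1 (-0.65). Abca1 followed none of them closely: its correlation was 0.30 with Abcg1, the other exporter, and -0.23 without raised pressure replicate 1. Insig2 had 0.58 with Abcg1 and 0.53 with Srebf2, but -0.28 and -0.02 without raised pressure replicate 1, so that these values rested on that array. The dim probe set of Stard4 had -0.07 with Srebf2 (0.44 without raised pressure replicate 1) and -0.28 with Abcg1 (0.28). All these are descriptions over pools that share the tissue content and RNA quality of each array, which was not tested as a source of the correlations. Raised pressure replicate 1 had 7 of the 8 genes below their mean and was the lowest array for 5.

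Abcg1 tracked the markers of myelinating oligodendrocytes. Its correlation with the score of that list, the mean log2 deviation over its members on an array, was 0.92 over the 10 arrays and 0.84 without raised pressure replicate 1. The same correlation was 0.75 and 0.59 for Srebf2, 0.63 and 0.48 for Stard4, -0.02 and -0.27 for Srebf1, and 0.35 and -0.31 for Abca1. The myelin score was -0.06, 0.42, 0.45, 0.11 and -0.18 in control and -0.96, 0.21, 0.10, -0.21 and 0.11 in raised pressure replicates 1 to 5. Of 17 listed myelin markers 13 were measured, all 13 had a lower mean after raised pressure, and 0 were below a signal of 16 on every array. The difference in mean score, raised pressure minus control, was -0.30 on the log2 scale. Without raised pressure replicate 1 all 13 means were lower and the difference in score was -0.10. Their summed signal was 67001 to 90082 in control and 50932 to 83148 in raised pressure arrays. Correlations with the astrocyte list were 0.70 for Abcg1 (0.60 without raised pressure replicate 1), 0.62 for Srebf2 (0.49) and 0.60 for Stard4 (0.48). With the list of fibroblasts and meninges Abcg1 had -0.32 (-0.81). The part of myelin or other cell content in the lower means of Abcg1, Srebf2 and Stard4 was not tested. With markers of microglia and macrophages, cells that also export sterol through Abca1 and Abcg1, Abcg1 had a correlation of 0.63 (0.21 without raised pressure replicate 1) and Abca1 one of 0.03 (-0.75). Of these markers 14 of 15 were measured and 10 had a lower mean, or 8 without raised pressure replicate 1 and 7 without control replicate 3. Their summed signal was 43331 to 51700 in control and 41676 to 48870 in raised pressure arrays, with 0 of the 14 below 16 on every array.

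**Figure D3:**
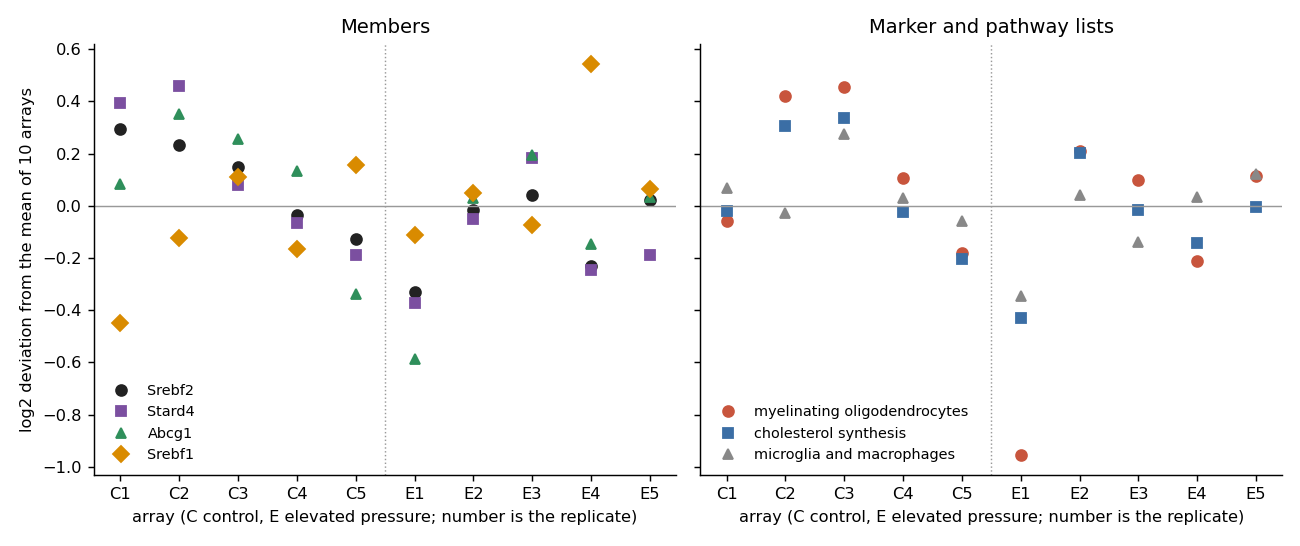
Left, log2 deviation of Srebf2, Stard4, Abcg1 and Srebf1 from their mean over the 10 arrays. Right, the mean log2 deviation of the lists for myelinating oligodendrocytes, cholesterol synthesis and microglia and macrophages on the same arrays, with control arrays (C) left and raised pressure arrays (E) right of the dotted line. Srebf2 and Stard4 lie close together on most arrays, and Srebf1 reaches its highest value on E4. E1 is lowest for Srebf2, Stard4 and Abcg1 and for each list on the right.

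The genes whose pattern was most like each of the 8 were sought among the 6197 genes with a mean log2 value above the median gene, as a description over 10 arrays. For Srebf2 they were Ppp2r2a, a regulatory subunit of protein phosphatase 2A, Litaf and Auts2, with Pearson correlations of 0.96, 0.95 and 0.95. For Stard4 they were Fkbp1a (0.96), Trim2 (0.95) and Phlpp1 (0.95), and for Abcg1 Spock1 (0.97), Plekha1 (0.97) and Arap2 (0.97). Scap was most like Cux1, Eif3c and Pkd1 (0.98, 0.96 and 0.96). Srebf1 was most like Rpa1 (0.94), Sharpin (0.94) and Smo (0.92), the signal transducer of the hedgehog pathway. Insig2 was most like Maged1, Med6 and Ddx50, each at 0.98, which stood at 0.90, 0.90 and 0.94 without raised pressure replicate 1. Apoe was most like Sike1 (0.94), Sh3kbp1 (0.92) and Adgrg1 (0.92). Abca1 had the lowest of these best values, 0.90 with Rbl2, 0.90 with Tcf12 and 0.89 with the transcript 2610001J05Rik.

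Around these genes, 8 lists of the sterol pathway with 115 names were examined, of which 97 genes were measured. At a limma adjusted p under 0.05, 0 of the 97 were called, and at an unadjusted p under 0.05 there were 3, where 3.82% of all genes were. In the list of SREBP processing, 8 of 12 measured genes had a lower mean, with a median log2 fold change of -0.07. Without raised pressure replicate 1, 10 were lower and the median was -0.03. Sec23a, a coat protein of the vesicles that carry Scap and its cargo, stood at -0.18 (interval -0.52 to 0.16), and at -0.05 without raised pressure replicate 1. Mbtps1, the protease that makes the initial SREBP cut, stood at 0.10 (interval -0.12 to 0.32), with its other probe sets at -0.04 and 0.08. It was 0.05 without control replicate 2 or raised pressure replicate 4, and 0.16 without raised pressure replicate 3. Sec24c and the ubiquitin ligase gene Rnf145 stood at -0.08 and -0.10, with -0.04 for Sec24c without control replicate 1 and -0.06 for Rnf145 without raised pressure replicate 1.

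Cholesterol synthesis genes were lower in 14 of 17 cases, with a median of -0.14. The median was -0.06 without raised pressure replicate 1 (13 lower), -0.09 and -0.07 without control replicates 2 and 3, and -0.24 without raised pressure replicate 2. Tm7sf2, a sterol reductase, stood at -0.20 (interval -0.46 to 0.06) and the isomerase gene Idi1 at -0.50 (interval -1.15 to 0.16), which was -0.21 without raised pressure replicate 1. Hsd17b7 stood at -0.39 (interval -0.99 to 0.21), and at -0.23 and -0.60 without raised pressure replicates 1 and 3. Fdps, which makes farnesyl pyrophosphate, stood at -0.31 (interval -0.82 to 0.19), and at -0.18 without raised pressure replicate 4. The score of this list had a correlation over the 10 arrays of 0.89 with Abcg1 (0.79 without raised pressure replicate 1), 0.76 with Srebf2 (0.61) and 0.66 with Stard4 (0.52), but -0.07 with Srebf1 (-0.22).

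Fatty acid synthesis genes, the main targets of SREBP-1, were lower in 10 of 14 cases (median -0.08), while Srebf1 itself had a higher mean. The median was -0.05, -0.02 and -0.12 without control replicates 2, 3 and 5, -0.03 without raised pressure replicate 3, and -0.06 without raised pressure replicate 1 (9 lower). Scd2 and Scd1, the desaturases, stood at -0.13 and -0.09. The other probe sets of Scd2 stood at -0.58 and 0.52, and that of Scd1 at 0.01. Acly and Elovl5 stood at -0.11 and -0.10. Without control replicate 2 Scd1 was -0.05 and Elovl5 -0.06. The score of this list had a correlation of 0.25 with Srebf1 and of 0.66 with Abcg1.

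In the list of liver X receptors, their partners and targets, 8 of 13 genes were higher, with a median of 0.04. The other 5 were lower, the lowest being Mylip at -0.24. Abca1 and Abcg1, which these receptors also induce, are not in this list, and neither are Srebf1 and Apoe. The brightest or only probe sets of Abca1, Abcg1, Srebf1 and Apoe stood at -0.08, -0.19, 0.19 and -0.06. The median was 0.02 without raised pressure replicate 1 or 4, 0.07 without raised pressure replicate 3 and 0.10 without control replicate 3. Abca7, a relative of Abca1, read 386, 351, 450, 316 and 360 in control and 410, 505, 473, 485 and 496 in raised pressure replicates 1 to 5. Only raised pressure replicate 1 lay within the control range. Its log2 fold change was 0.34 (interval 0.11 to 0.57), with a limma adjusted p = 0.837 and a two-sided exact permutation p = 0.0159 before adjustment. Whether the liver X receptors induce Abca7 was not examined here. Nr1h3, the gene of liver X receptor alpha, stood at 0.28 (interval -0.08 to 0.63) and at 0.16 without raised pressure replicate 1. The lipoprotein receptor gene Scarb1 stood at 0.21, and at 0.14 without raised pressure replicate 3, and Rxrb, a partner of the liver X receptors, at 0.14.

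Among genes of lipoprotein receptors and uptake, 7 of 10 were higher (median 0.11). The median was 0.06 without control replicate 2 or raised pressure replicate 2, 0.07 without control replicate 5, 0.09 without raised pressure replicate 1, and 0.04 without the dimmest 25% of probe sets. Cd36, a scavenger receptor and fatty acid carrier, was the exception in size, with signals of 766, 463, 417, 582 and 267 in control and 134, 110, 507, 212 and 264 in raised pressure replicates 1 to 5. All raised pressure arrays except replicate 3 lay below the lowest control array, replicate 5 by a small margin. Its log2 fold change was -1.09 (interval -1.92 to -0.25, limma adjusted p = 0.837, two-sided exact permutation p = 0.0476 before adjustment). The other probe sets of Cd36 stood at -0.77 and -0.73, with large standard errors of 0.58 and 0.40. Stab1, Lsr and Lrp8 stood at 0.29, 0.32 and 0.22. Stab1 was 0.19 without control replicate 2 and Lsr 0.18 without control replicate 3.

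Apolipoprotein genes showed little difference, with 4 of 11 higher and a median of -0.01. With 1 array left out the median ran from -0.03 without raised pressure replicate 4 to 0.04 without control replicate 2, and it was also above 0 without raised pressure replicate 1 or 3. Apom and Apoc2 stood at 0.15 and 0.14, with another probe set of Apom at -0.05. Apoc2 ran from 0.05 without raised pressure replicate 4 to 0.25 without control replicate 5, and was 0.08 without control replicate 2. Apoa1 stood at 0.10, with its other probe sets at 0.27, 0.02 and -0.23, and was 0.06 without control replicate 5. Apod, a glial apolipoprotein, stood at -0.08, and at -0.04 without raised pressure replicate 3.

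In intracellular sterol transport and storage, 9 of 13 genes were lower and the median was -0.04. Without raised pressure replicate 1, 7 were lower and the median was -0.0090, and it was -0.02 without raised pressure replicate 3. Gramd1a, which moves cholesterol from the plasma membrane to the endoplasmic reticulum, was the only named pathway gene whose groups did not overlap. Over all genes 0.629% had such groups. The named genes were picked by their small p in these data, so that share is not a like measure for them. Gramd1a read 423, 507, 538, 536 and 555 in control and 741, 603, 576, 709 and 654 in raised pressure replicates 1 to 5. Its log2 fold change was 0.35 (interval 0.12 to 0.58, limma adjusted p = 0.837). The two-sided exact permutation p was 0.00794 before adjustment, the smallest that 5 against 5 arrays can give. Any gene whose groups do not overlap gets that value. Osbpl2 stood at 0.17, Cav1 at -0.18 and the oxysterol-binding protein gene Osbp at -0.17, which was -0.04 without raised pressure replicate 1. All 7 genes of sterol hydroxylases had a higher mean, with a median of 0.07. Without raised pressure replicate 1 or control replicate 1, 6 of the 7 were higher, with a median of 0.04 in both cases, and without control replicate 2 the median was 0.13. Without raised pressure replicate 4, 5 were higher. Among them were Cyp46a1 (0.27, interval -0.20 to 0.74), which makes the brain's exported oxysterol, Ch25h (0.26, interval -0.24 to 0.77), Cyp27a1 (0.13) and Cyp11a1 (0.07). Cyp46a1 was 0.11 without raised pressure replicate 4, 0.15 without control replicate 4 and 0.42 without control replicate 3. Ch25h ran from 0.14 without raised pressure replicate 3 to 0.40 without control replicate 1, and was 0.15 without control replicate 2 and 0.16 without raised pressure replicate 4. Cyp27a1 ran from 0.08 without raised pressure replicate 1 or control replicate 5 to 0.23 without raised pressure replicate 3, and Cyp11a1, with mean signals of 35.5 and 38.1, from 0.01 without control replicate 3 to 0.18 without raised pressure replicate 4.

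**Figure D4:**
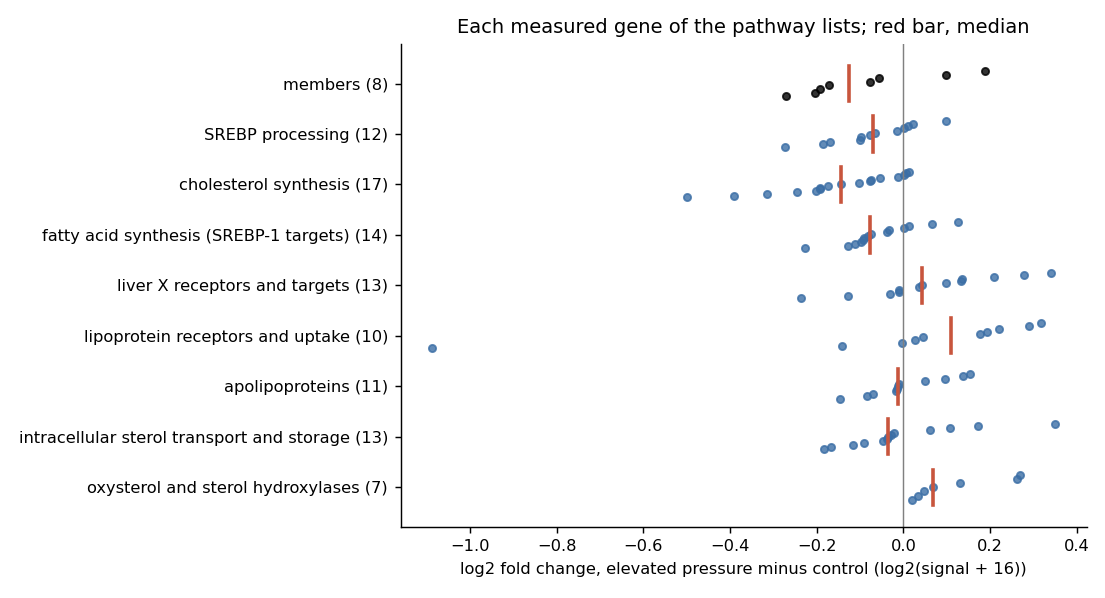
Log2 fold change (raised pressure minus control, log2(signal + 16)) of each measured gene, as 1 point, for the 8 sterol genes described above (black, labelled members) and the 8 pathway lists (blue), with the number of genes in brackets and the median as a red bar. Cd36 stands alone at -1.09.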

How the data were processed

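RNA from pools of 2 optic nerve heads was amplified, biotin-labelled and hybridised, 1 array a pool, per the labels' protocols. The deposited table held linear intensity values (0.69 to 20168) of 22690 probe sets on each of 10 arrays. How the authors summarised, background-corrected and normalized them was not given in the sources used here, and no detection calls were used.

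Values were analysed as log2(signal + 16), which understates changes of dim genes. The 64 control probe sets were left out. Of the other 22626, 20380 had 1 symbol in the platform annotation, 691 several and 1555 none listed. Entrez identifiers of 20351 were found in the RefSeq gene table, and 0 symbols needed an update. All 22626 were fitted in limma 3.58.1 under R 4.3.3 with lmFit and eBayes, without covariates, with Benjamini-Hochberg adjustment over all of them and a threshold of 0.05. For a gene, its brightest probe set by mean over the 10 arrays speaks first, and lists use only that one. Confidence intervals are at 95%. Exact permutation tests run over 252 splits. Named were all sterol genes, up to 4 genes with the smallest p of each pathway list, and the 3 genes most like each sterol gene. The genes and lists were chosen with earlier results of these data known. The labels call the pools biological replicates.

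On simulated data 200 of 22626 probe sets were changed. The limma test recovered 30.0% of changes of 0.5, 75.3% of changes of 1.0 and 96.0% of changes of 2.0 on the log2 scale. The simulated noise was independent between probe sets and arrays. Real arrays share tissue content and RNA quality across probe sets, so these rates are not the power of this experiment. The labels do not say whether same-numbered arrays hold the same mice, so no block was used in the main fit. That fit treats the eyes of the same animals as independent. The numbers were also checked as pairs. Same-numbered arrays had correlations of their deviations from -0.08 to 0.18, and 2 of 5 matched their own number best, which cannot settle the pairing. Alternatives were other normalizations, a pseudocount of 1, 1 probe set per gene or the mean over its probe sets, leaving out the dimmest 25%, a trended robust variance, array weights, a replicate block, and leaving out each array. Other steps ran in Python 3.11.15 (pandas 2.3.3, NumPy 2.4.6, Matplotlib 3.10.9, SciPy 1.17.1).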

Additional observations from a re-analysis of the deposited data

Results flagged for a closer look

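In 8 of 92 groups of 5 arrays checked, 1 array lay far from the other 4 by Dixon's gap against the range (critical value 0.71), where chance flags about 1 in 20. Among the sterol genes this was Srebf1, at 4538 in raised pressure replicate 4 against 2869 to 3247 in the other raised pressure arrays. Of the pathway genes, raised pressure replicate 1 was low for Osbp (3118 against 4627 to 5051) and Scd1 (8694 against 9369 to 9645). Raised pressure replicate 3 was low for Apod (10386 against 11975 to 12530) and Apom (37.8 against 50.2 to 55.7) and high for Apoa1 (71.9 against 63.0 to 64.3). Raised pressure replicate 4 was high for Cyp46a1 (1251 against 689 to 761), and control replicate 1 for Scarb1 (1175 against 799 to 881).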

How the results depend on the processing

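The count of called probe sets was 0 under every alternative run at an adjusted p under 0.05 or 0.10, including each array left out (0 to 0). At an unadjusted p under 0.05 it was 1004, and with 1 array left out it ran from 739 without control replicate 2 to 2017 without raised pressure replicate 3. The lowest limma adjusted p of a sterol gene over all alternatives was 0.541. The number of sterol genes with a lower mean was 6, and 5 to 6 with 1 array left out. Their median of -0.12 ran from -0.19 without raised pressure replicate 3 to -0.04 without raised pressure replicate 1, and was -0.07 with array weights. Of 263 values of single probe sets under the alternatives, 255 kept their direction. The brightest probe set of Abca1 turned to 0.0048 without raised pressure replicate 1, within a range of -0.18 to 0.0048 with 1 array left out, and the mean over the probe sets of Abca1 was 0.10. A dim probe set of Abca1 ran from -0.089 to 0.25 with 1 array left out. The Insig2 probe set near 0 ran from -0.0082 to 0.087 with 1 array left out and was -0.013 with array weights. With a replicate block the count of called probe sets was 0 as a fixed and as a random term, 6 genes were lower and their median was -0.12, and the block changed no call. Leaving out 1 array turned the direction of 0 of the 32 named pathway genes and moved 21 of them by over 1.5 times. These genes were picked by their small p in these data, which favours differences that keep their direction.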
